A study of Homo sapiens with 6 samples.

Results

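The heat shock chaperones and cochaperones of the cytosol were described here in human umbilical vein endothelial cells (HUVECs) given a mimic of the microRNA miR-409-3p. The group comprised 41 genes of the 45372 gene IDs in the deposited tables, taken by symbol: the HSP70 and HSP110 proteins, HSP90 with its cochaperones, the J-domain proteins, the BAG exchange factors, the CCT/TRiC chaperonin, small and mitochondrial heat shock proteins, and the heat shock transcription factors. All 41 passed the filter on low values (at least 1 TPM in at least 3 libraries), as did 13680 genes in all. The list was drawn up with earlier results of the same comparison known, so the counts, folds and p-values of its members below describe the data and support no claim about the group. Some members do not work in the cytosol: HSPD1 and HSPE1 are mitochondrial, and HSPA13 is associated with membranes of the endoplasmic reticulum.

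HUVECs are primary endothelial cells, the cells that line blood vessels. The cells, labelled wild type and used at a low passage, were transfected through a lipid reagent with the mimic or with a non-specific control, each at 50 nM, and were labelled as 48 h samples. Each group had 3 libraries, which the labels call biological replicates. The design text says that the RNA of each came from pooled technical replicates, and nothing says whether the replicates came from separate donors or cultures, so p-values measure the spread between these samples only. Titles in both groups also call the cells not treated, without saying which treatment is meant. There was no group without transfection.

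HSP70 chaperones bind exposed hydrophobic stretches of unfolded proteins and work through a cycle of ATP hydrolysis that J-domain proteins start and exchange factors end. HSP90 takes over clients such as kinases, steroid receptors and, in endothelium, nitric oxide synthase, and the ring-shaped chaperonins fold actin, tubulin and other proteins in a closed chamber. When unfolded proteins build up, heat shock factor 1 (HSF1) binds heat shock elements, runs of inverted GAA units in the promoters of its target genes.

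The microRNA and the promoters of the members the results turn on are shown first. The mature miR-409-3p of RefSeq (GRCh38.p14, chr14:101065346-101065367, plus strand) has its seed, bases 2 to 8, in capitals.
hsa-miR-409-3p: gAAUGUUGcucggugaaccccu

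The following promoters are those of the 3 members that fell, of the 2 cochaperones nearest to them in fold change, and of HSP90AA1, whose level differed little. Each runs from 250 bases before to 50 bases after a RefSeq transcript start on GRCh38.p14 and is written 5′ to 3′ on the strand of the gene. Capitals mark matches to a 2-unit heat shock element, GAANNTTC or TTCNNGAA. HSPA1A lay at chr6:31815293-31815592 (plus strand), HSPA1B at chr6:31827488-31827787 (plus strand), HSPA8 at chr11:123062087-123062386 (minus strand), DNAJB1 at chr19:14518348-14518647 (minus strand), CHORDC1 at chr11:90223000-90223299 (minus strand) and HSP90AA1 at chr14:102086995-102087294 (minus strand). DNAJB1 had 2 and HSP90AA1 1 further start in the table.
HSPA1A: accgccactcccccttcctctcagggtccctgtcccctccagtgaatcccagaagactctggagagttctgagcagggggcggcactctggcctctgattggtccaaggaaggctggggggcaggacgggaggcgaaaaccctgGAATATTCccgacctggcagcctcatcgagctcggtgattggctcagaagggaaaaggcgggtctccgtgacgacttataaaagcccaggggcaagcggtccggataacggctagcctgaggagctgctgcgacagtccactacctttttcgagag
HSPA1B: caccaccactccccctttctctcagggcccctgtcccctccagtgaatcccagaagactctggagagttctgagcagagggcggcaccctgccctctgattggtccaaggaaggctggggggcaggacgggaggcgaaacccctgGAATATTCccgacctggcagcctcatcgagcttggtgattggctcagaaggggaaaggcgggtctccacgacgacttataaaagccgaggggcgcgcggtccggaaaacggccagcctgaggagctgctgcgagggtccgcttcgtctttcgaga
HSPA8: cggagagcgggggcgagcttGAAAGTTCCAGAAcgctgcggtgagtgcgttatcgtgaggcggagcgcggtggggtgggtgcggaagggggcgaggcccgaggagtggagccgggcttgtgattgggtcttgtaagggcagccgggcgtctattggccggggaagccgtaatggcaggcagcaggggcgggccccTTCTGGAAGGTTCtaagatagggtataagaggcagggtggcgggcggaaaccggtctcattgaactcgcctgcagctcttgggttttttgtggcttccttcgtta
DNAJB1: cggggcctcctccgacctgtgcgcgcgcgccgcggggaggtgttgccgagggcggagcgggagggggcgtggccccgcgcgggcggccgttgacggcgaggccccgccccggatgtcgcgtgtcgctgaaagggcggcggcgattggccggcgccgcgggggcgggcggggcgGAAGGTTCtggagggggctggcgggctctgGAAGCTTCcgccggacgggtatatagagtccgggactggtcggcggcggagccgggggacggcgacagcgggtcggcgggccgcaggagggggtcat
CHORDC1: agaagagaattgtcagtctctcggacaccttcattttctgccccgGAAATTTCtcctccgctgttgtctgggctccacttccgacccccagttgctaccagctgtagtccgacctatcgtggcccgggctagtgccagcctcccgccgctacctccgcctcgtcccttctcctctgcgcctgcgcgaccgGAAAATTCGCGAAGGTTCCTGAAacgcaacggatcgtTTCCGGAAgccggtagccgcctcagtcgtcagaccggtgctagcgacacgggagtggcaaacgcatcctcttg
HSP90AA1: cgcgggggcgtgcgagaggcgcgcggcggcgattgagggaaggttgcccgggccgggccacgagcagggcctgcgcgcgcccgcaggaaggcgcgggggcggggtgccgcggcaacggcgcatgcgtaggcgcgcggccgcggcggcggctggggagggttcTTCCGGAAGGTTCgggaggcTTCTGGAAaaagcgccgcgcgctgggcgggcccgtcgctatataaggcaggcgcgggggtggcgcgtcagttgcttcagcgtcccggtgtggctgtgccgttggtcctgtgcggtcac

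The libraries were checked before the members were compared. TPM (reads divided by gene length and scaled to one total) keeps no depth, but the steps between low values implied 29.8 to 35.8 M assigned reads per library. All 6 libraries carried endothelial markers: PECAM1, CDH5, VWF, KDR, TIE1, TEK, CLEC14A and EGFL7 summed to between 5214 and 5455 TPM in control and between 5496 and 5611 TPM in mimic libraries. The mimic libraries were thus all higher in this sum, but the markers did not all move the same way. In control and mimic cells, CDH5 averaged 831 and 816 TPM and EGFL7 695 and 676 TPM, while the other markers had higher means in mimic cells. Only CLEC14A, at 1112 and 1224 TPM, had no overlap between the groups. The summed markers of smooth muscle (7.65 to 10.5 TPM in control, 8.42 to 9.62 TPM in mimic), fibroblasts (12.8 to 16.0 and 12.8 to 16.2 TPM), leukocytes (0.259 to 0.425 and 0.105 to 0.613 TPM) and epithelium (1.85 to 2.71 and 1.58 to 2.75 TPM) were low and overlapped between the groups. PTPRC, CD3E, KRT5 and KRT14 were at 0 in every library. Whether the endothelial marker difference bears on the members was not tested, and in bulk RNA fewer cells of a type cannot be told apart from less RNA per cell.

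Among the 41 members, 3 were lower in mimic-transfected cells and none was higher at an adjusted p under 0.05 (limma on log2(TPM + 1), Benjamini-Hochberg over all 13680 genes). The 3 were HSPA1A, HSPA1B and HSPA8, the main HSP70 chaperones of the cytosol. Over all genes tested, 0.300% were called lower and 0.132% higher. At an unadjusted p under 0.05, 8 members were lower and 0 higher, where 7.64% of all genes were lower and 3.05% higher. In 9 members all mimic libraries lay below all control libraries, and in 0 members all lay above, against 10.5% and 5.16% of all genes. Because the list was made from this comparison, nothing is read from these shares. The median log2 fold change was -0.041 over the members and -0.017 over all genes, and 31 members lay below 0 and 10 above. An exact permutation test of 3 against 3 libraries cannot give a two-sided p below 0.1.

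**Figure D1:**
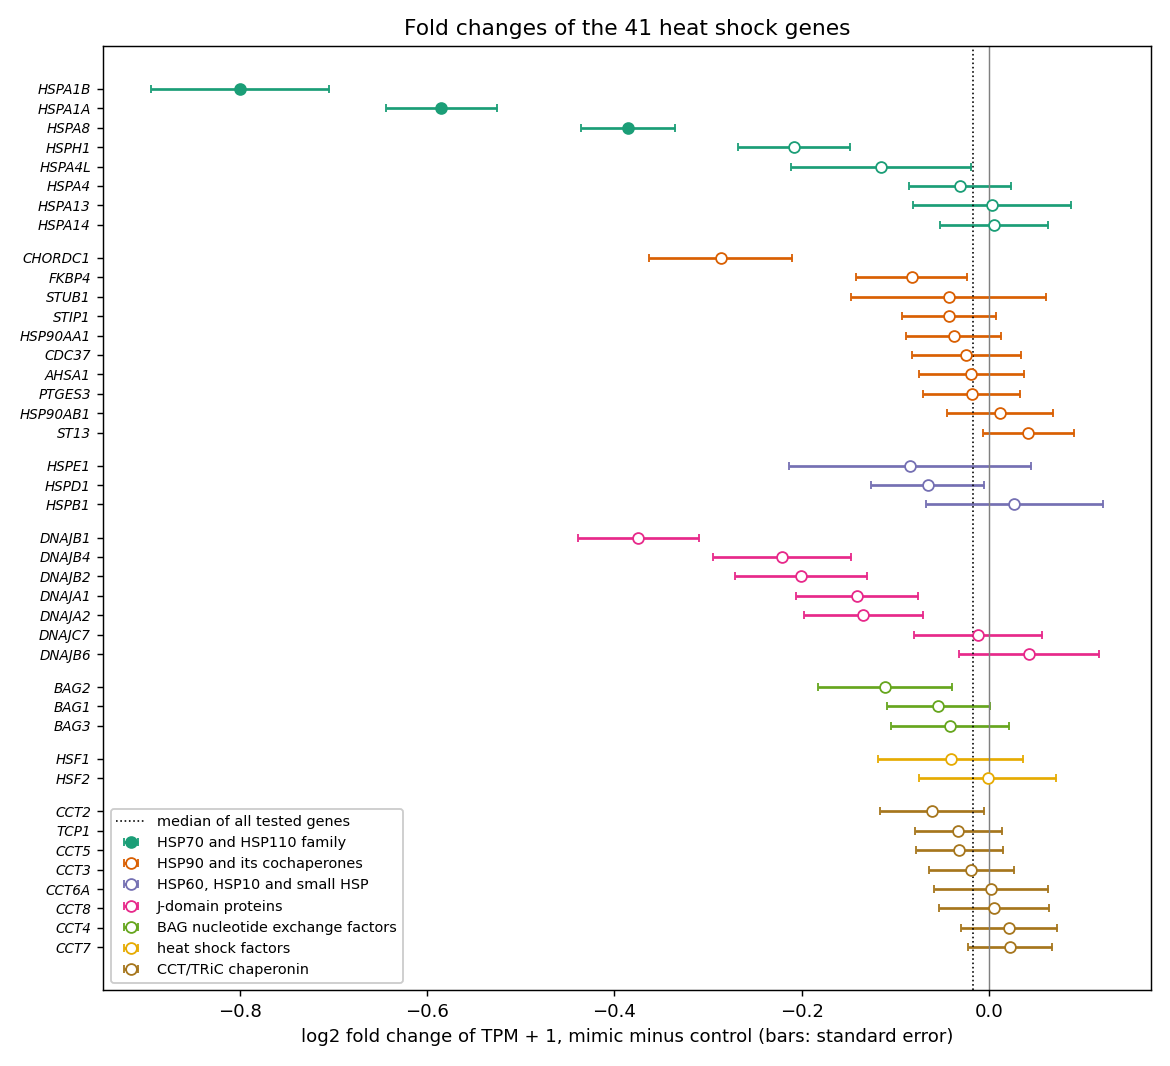
Log2 fold change of TPM + 1, mimic minus control, for the 41 members grouped by role, with bars for the standard error and a dotted line at the median of all tested genes. Filled points are the 3 members past the threshold (HSPA1A at -0.58, HSPA1B at -0.80 and HSPA8 at -0.39) and open points the 38 that did not pass.

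HSPA1A and HSPA1B are neighbouring genes for almost identical stress-inducible HSP70 proteins. HSPA1A (ENSG00000204389, GRCh38 chr6:31815464-31817946, plus strand) read 108, 118 and 106 TPM in the control libraries and 71.6, 72.2 and 76.3 TPM in the mimic libraries. The groups did not overlap, and the highest mimic library was well below the lowest control library. Its level fell from 111 ± 6.39 to 73.3 ± 2.55 TPM (SD, n = 3), a ratio of 0.663 (log2 fold change -0.58, SE 0.06, limma adjusted p = 0.00619). HSPA1B (ENSG00000204388, chr6:31827735-31830255, plus strand) read 78.0, 79.5 and 69.3 TPM in control and 43.7, 37.5 and 48.2 TPM in mimic libraries, again with no overlap. It fell from 75.6 ± 5.48 to 43.2 ± 5.42 TPM (SD, n = 3), a ratio of 0.571 (log2 fold change -0.80, SE 0.10, limma adjusted p = 0.0143). This was the lowest fold change of the 41.

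The 2 genes share much of their sequence, so how reads were divided between them is uncertain, and their 2 calls may not be separate. Of the 75-base windows of the HSPA1A transcript, 71.2% also occurred in another gene, mostly HSPA1B, and of those of HSPA1B 73.2% did. The reads were 75 cycles long, and the counting rule for reads that match both genes is not given in the sources used here. The sum of the pair does not depend on that division between them: it was 186, 197 and 175 TPM in control and 115, 110 and 125 TPM in mimic libraries. The summed level fell from 186 ± 11.2 to 116 ± 7.5 TPM (SD, n = 3), a ratio of 0.626 (log2 fold change -0.67, SE 0.07, limma adjusted p = 0.00587). The share of HSPA1B against HSPA1A was 0.719, 0.675 and 0.657 in control and 0.611, 0.519 and 0.633 in mimic libraries, lower in all mimic libraries. HSPA1B also overlaps a gene on its own strand, AL671762.1, which read 26.2, 9.08 and 19.9 TPM in control and 13.5, 11.6 and 13.4 TPM in mimic libraries. That gene did not pass the test (log2 fold change -0.38, SE 0.30, limma adjusted p = 0.788).

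HSPA8 encodes HSC70, the HSP70 that is made without stress and also strips clathrin from vesicles. HSPA8 (ENSG00000109971, chr11:123057489-123063230, minus strand) read 1404, 1501 and 1494 TPM in control and 1129, 1120 and 1116 TPM in mimic libraries. The mimic libraries lay close together, and all were below the control libraries. Its level fell from 1466 ± 54.4 to 1122 ± 7.03 TPM (SD, n = 3), a ratio of 0.765 (log2 fold change -0.39, SE 0.05, limma adjusted p = 0.0199). Among the 122 tested genes with at least 1000 TPM in control cells it had the lowest fold change, a ranking made after the values were seen. The introns of HSPA8 hold the small nucleolar RNA genes SNORD14E, SNORD14D and SNORD14C on the same strand.

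In TPM, which is per length, the fall of HSPA8 was the largest in amount. HSPA1A, HSPA1B and HSPA8 together went from 1652 ± 56.0 to 1238 ± 7.55 TPM (SD, n = 3), a difference of -414 TPM, while the sum of all 41 members went from 16046 ± 249 to 15442 ± 180 TPM, a difference of -604 TPM. HSPA1A plus HSPA1B made up a smaller amount relative to HSPA8 in the mimic libraries: the ratio was 0.133, 0.131 and 0.117 in control and 0.102, 0.0979 and 0.112 in mimic libraries. For HSPA1A and HSPA8 the TPM values corresponded to whole reads in every library, within 0.03 reads, as for 15 of the 41 members. These were 2232, 2383 and 2269 reads against 1446, 1593 and 1430 reads for HSPA1A. For HSPA8 they were 56404, 59323 and 62721 reads against 44565, 48281 and 40850 reads.

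The 3 calls were sensitive to the libraries used. Without mimic library 1 none passed (limma adjusted p = 0.0504 for HSPA1A, 0.0607 for HSPA1B and 0.129 for HSPA8), without control library 2 HSPA1B (0.0653) and HSPA8 (0.0919) did not, without control library 1 HSPA1B (0.0818) did not and without control library 3 HSPA8 (0.132) did not. With no filter on low values the limma adjusted p was 0.0527, 0.143 and 0.155 in the same order, and with an untrended prior variance it was 0.055 for HSPA1B and 0.0716 for HSPA8. Their log2 fold changes stayed between -0.62 and -0.54, between -0.88 and -0.70 and between -0.42 and -0.36 over the alternatives run.

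**Figure D2:**
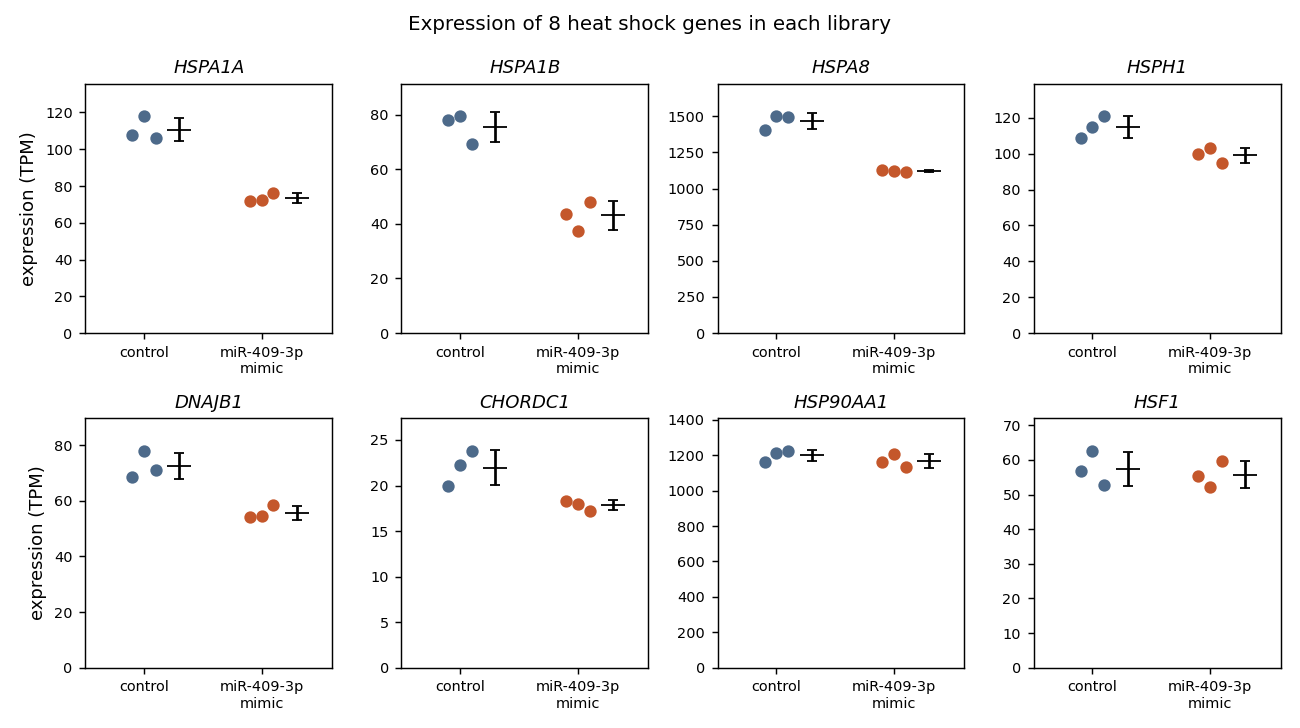
Expression in TPM of 8 heat shock genes in each of the 3 control and 3 mimic libraries (points), with the mean and SD beside them; each panel has its own axis from 0. HSPA1A, HSPA1B, HSPA8, HSPH1, DNAJB1 and CHORDC1 show no overlap between the groups, while HSP90AA1 and HSF1 overlap.

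The other members of the HSP70 and HSP110 family did not pass the test. HSPH1, an HSP110 protein that exchanges the nucleotide of HSP70 and keeps unfolded proteins soluble, read 109, 115 and 121 TPM in control and 99.8, 103 and 94.8 TPM in mimic libraries. Its groups did not overlap, with means of 115 ± 6.19 and 99.2 ± 4.14 TPM (SD, n = 3) and a log2 fold change of -0.21 (SE 0.06, limma adjusted p = 0.216). The related exchange factors HSPA4 and HSPA4L differed less from control: HSPA4 had means of 210 ± 3.64 and 205 ± 11.2 TPM, and HSPA4L, the lowest expressed member, 7.31 ± 0.412 and 6.69 ± 0.745 TPM (SD, n = 3). Both overlapped between the groups. HSPA14, which works with a J-domain partner at the ribosome, read 34.7, 32.8 and 34.4 TPM in control and 33.6, 35.6 and 33.1 TPM in mimic libraries (a log2 difference of 0.01, SE 0.06). HSPA13 averaged 81.6 ± 5.06 and 82.0 ± 9.12 TPM. The 8 genes of the family had summed levels of 2100 ± 64.4 and 1666 ± 21.5 TPM in control and mimic cells (SD, n = 3), a difference of -434 TPM.

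The J-domain proteins bring clients to HSP70 and trigger its ATP hydrolysis. None of the 7 passed the threshold, 3 were lower and 0 higher at an unadjusted limma p under 0.05, and the same number had no overlap between groups. Over all genes 7.64% were lower and 3.05% higher at that level, and in 10.5% all mimic libraries lay below all control libraries. Nothing is read from these counts. Their median log2 fold change was -0.141. DNAJB1, the main stress-inducible partner of HSP70, came closest: it read 68.7, 77.9 and 71.0 TPM in control and 54.0, 54.4 and 58.6 TPM in mimic libraries. All mimic libraries were below all control libraries, with means of 72.5 ± 4.78 and 55.7 ± 2.52 TPM (SD, n = 3), a ratio of 0.768. The log2 fold change was -0.37 (SE 0.06, limma adjusted p = 0.0566), the first value beyond the threshold among the members, while HSPA8 with 0.0199 was the last within it. DNAJB1 did pass with a filter of 5 TPM (adjusted p = 0.0295), with median-of-ratios scaling (0.0499), with quantile scaling (0.0442) and over protein-coding genes only (0.0272). It passed in these 4 of 16 alternatives, with an adjusted p between 0.0272 and 0.229 over all of them.

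DNAJB4, a close relative of DNAJB1, read 278, 267 and 275 TPM in control and 231, 261 and 213 TPM in mimic libraries. The groups did not overlap, but the mimic libraries were more spread (274 ± 5.69 and 235 ± 24.3 TPM, SD, n = 3; log2 fold change -0.22, SE 0.07, limma adjusted p = 0.303). DNAJB2, which hands ubiquitinated clients to the proteasome, read 14.8, 14.9 and 14.5 TPM in control and 11.8, 13.3 and 13.0 TPM in mimic libraries (a log2 difference of -0.20, SE 0.07, limma adjusted p = 0.334), also without overlap. DNAJA1, the most abundant J-domain member by TPM, averaged 615 ± 17.0 and 559 ± 45.0 TPM, with overlap (log2 fold change -0.14, SE 0.07). DNAJA2, its paralog, averaged 70.5 ± 2.27 and 64.2 ± 4.43 TPM (log2 fold change -0.13, SE 0.06). DNAJB6, a suppressor of protein aggregation, read 49.8, 52.2 and 53.0 TPM in control and 52.7, 58.8 and 48.6 TPM in mimic libraries (a log2 difference of 0.04, SE 0.07). DNAJC7, which binds both HSP70 and HSP90, averaged 51.3 ± 2.57 and 50.9 ± 3.54 TPM. DNAJB6 and DNAJC7 overlapped between the groups. Summed, the J-domain members had means of 1150 ± 22.2 and 1031 ± 79.7 TPM in control and mimic cells (SD, n = 3).

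The BAG proteins release the nucleotide of HSP70 and so end its hold on a client. None of the 3 passed, and none had an unadjusted limma p under 0.05 in either direction. BAG2 read 8.56, 8.80 and 8.58 TPM in control and 8.13, 7.82 and 7.85 TPM in mimic libraries, a small difference without overlap (log2 fold change -0.11, SE 0.07, limma adjusted p = 0.691). BAG3, which directs clients to autophagy and is stress-inducible like HSPA1A, read 147, 168 and 158 TPM in control and 150, 148 and 160 TPM in mimic libraries. These overlapped widely (log2 fold change -0.04, SE 0.06, limma adjusted p = 0.925). BAG1, which links HSP70 to the proteasome, averaged 38.3 ± 0.41 and 36.9 ± 1.48 TPM (SD, n = 3).

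Neither gene of cytosolic HSP90 passed the test. HSP90AB1, the constitutive form and the most abundant member by TPM, read 3178, 3307 and 3397 TPM in control and 3312, 3454 and 3198 TPM in mimic libraries. The groups overlapped, at 3294 ± 110 and 3321 ± 128 TPM (SD, n = 3). The log2 fold change was 0.01 (SE 0.06, limma adjusted p = 0.98), and its sign turned under quantile scaling (-0.07). HSP90AA1, the stress-inducible form, read 1162, 1210 and 1224 TPM in control and 1161, 1208 and 1134 TPM in mimic libraries (a log2 difference of -0.04, SE 0.05, limma adjusted p = 0.912). The sum of both was 4492 ± 142 and 4489 ± 165 TPM (SD, n = 3). The ratio of HSPA8 to HSP90AB1 was 0.442, 0.454 and 0.44 in control and 0.341, 0.324 and 0.349 in mimic libraries.

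Of the 10 genes of HSP90 and its cochaperones, none passed, 1 was lower and 0 higher at an unadjusted limma p under 0.05, and the median log2 fold change was -0.031. The 1 was CHORDC1, a zinc-binding cochaperone that is itself stress-inducible. CHORDC1 read 19.9, 22.2 and 23.8 TPM in control and 18.3, 18.0 and 17.2 TPM in mimic libraries, without overlap (means 22.0 ± 1.97 and 17.8 ± 0.578 TPM, SD, n = 3). Its log2 fold change was -0.29 (SE 0.08, limma adjusted p = 0.184). ST13, which steadies the client-bound state of HSP70, read 376, 386 and 396 TPM in control and 396, 409 and 387 TPM in mimic libraries and had the highest fold change of this role group (log2 0.04, SE 0.05). STIP1, which passes clients from HSP70 to HSP90, averaged 270 ± 9.73 and 262 ± 6.45 TPM (SD, n = 3).

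The remaining cochaperones of HSP90 overlapped between the groups. They were AHSA1, which stimulates the HSP90 ATPase (217 ± 11.5 and 214 ± 6.43 TPM), CDC37, which delivers kinases (619 ± 14.4 and 610 ± 38.5 TPM), and PTGES3, the p23 protein of steroid receptor complexes (560 ± 18.5 and 553 ± 19.6 TPM). FKBP4, a prolyl isomerase of the same complexes, averaged 103 ± 4.23 and 97.1 ± 5.15 TPM (log2 fold change -0.08, SE 0.06). STUB1, the ubiquitin ligase that tags clients of HSP70 and HSP90, was uneven in the mimic libraries: it read 129, 141 and 124 TPM in control and 128, 109 and 148 TPM in mimic libraries.

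The chaperonins had levels within the spread of the libraries. The 8 subunits of CCT/TRiC, the ring that folds actin and tubulin, had log2 fold changes between -0.06 and 0.02 with a median of -0.008, and 0 of 8 had an unadjusted limma p under 0.05 in either direction. CCT2, the lowest of them, read 245, 270 and 270 TPM in control and 252, 255 and 246 TPM in mimic libraries. CCT7, the highest, read 426, 439 and 430 TPM in control and 436, 445 and 434 TPM in mimic libraries (a log2 difference of 0.02, SE 0.04). Means of the 8 in control cells ran from 262 to 469 TPM and their sum was 3027 ± 60.1 and 3015 ± 85.4 TPM (SD, n = 3).

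HSPD1 and HSPE1 form the chaperonin and its lid in mitochondria. HSPD1 read 506, 540 and 549 TPM in control and 498, 543 and 485 TPM in mimic libraries (a log2 difference of -0.07, SE 0.06). HSPE1 read 406, 344 and 370 TPM in control and 361, 422 and 285 TPM in mimic libraries (a log2 difference of -0.08, SE 0.13), the widest standard error of all members. The 2 genes lie head to head and overlap, and 22.3% of the 75-base windows of HSPE1 also occur in some other gene, 13.6% in the read-through gene HSPE1-MOB4. HSPB1, the small heat shock protein HSP27 that binds unfolded proteins without ATP and bears on actin filaments, read 1877, 1753 and 1699 TPM in control and 1905, 1550 and 2004 TPM in mimic libraries. All 3 genes overlapped between the groups, and none had an unadjusted limma p under 0.05.

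The transcription factors of the heat shock response were at similar levels in both groups. HSF1 read 56.8, 62.6 and 52.9 TPM in control and 55.5, 52.1 and 59.7 TPM in mimic libraries (a log2 difference of -0.04, SE 0.08, limma adjusted p = 0.945). HSF2, a related factor that can pair with HSF1, read 21.9, 25.5 and 25.2 TPM in control and 24.9, 23.9 and 23.5 TPM in mimic libraries (a log2 difference of -0.0015, SE 0.07, limma adjusted p = 0.999), and its sign turned under median-of-ratios (0.02) and quantile scaling (0.04). HSF1 is mainly controlled through its protein, which RNA levels do not show.

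**Figure D3:**
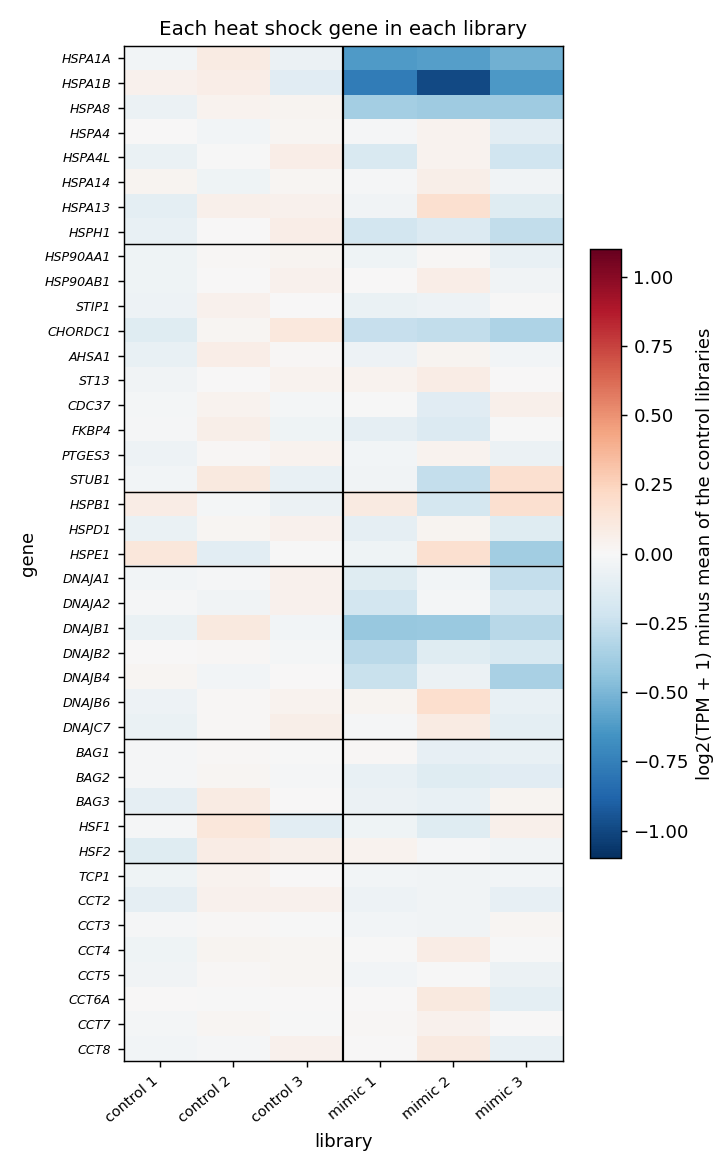
Each of the 41 members (rows, in role groups set apart by lines) in each library (columns), as log2(TPM + 1) minus the mean of the control libraries. HSPA1A, HSPA1B, HSPA8 and DNAJB1 are below control in all 3 mimic libraries, and mimic library 2 and mimic library 3 differ in sign for many other members.

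The member values in single libraries are given beside those of all genes. Mimic library 3 held the lowest value of the 6 in 17 of the 41 members and in 24.0% of all genes tested. Mimic library 2 held the lowest in 9 members and 19.9% of all genes, and the highest in 12 members and 24.9% of all genes. Control library 2 held the highest value in 15 members and 21.9% of all genes. These differences in share were not tested. Without HSPA1A, HSPA1B and HSPA8, the median deviation of the other 38 members from their mean over all libraries was -0.056 in mimic library 3 and 0.0316 in mimic library 2 on the log2 scale, against -0.0203 and 0.0104 for all genes. The spread in the mimic group exceeded that of the control group in 27 of 41 members, and in 7813 of 13680 genes. The 38 members had a median log2 fold change of -0.035. At an unadjusted limma p under 0.05, 5 of them were lower and 0 higher, against 7.64% and 3.05% of all genes. Without control library 1 the members whose groups did not overlap on the low side numbered 16, and without mimic library 2 they numbered 14, but the share of all genes without overlap on that side was then also larger, at 22.1% and 19.2%.

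Heat shock element letters were then compared with these values. Promoters in the RefSeq table matched 35 of the 41 members, with 50 promoters. The 3-unit form GAANNTTCNNGAA or TTCNNGAANNTTC, searched on both strands, was found in 172 of 35116 promoters in the table (0.49%) and in 7 of the 50 member promoters, those of HSPA8, HSP90AA1, HSP90AB1, CHORDC1, HSPD1, DNAJA1 and DNAJB6. Their log2 fold changes ran from -0.39 to 0.04, with a median of -0.066, and only HSPA8 was called among these 7. The 2-unit form, which the 3-unit form contains, was in 4737 promoters (13.49%) and in 19 member promoters of 18 genes.

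Genes with matches included members with a call and members without. HSPA1A and HSPA1B had a single 2-unit match, starting 106 and 105 bases before the start, and no 3-unit match in this window. HSPA8 held 4 overlapping 2-unit matches in 2 runs, and HSP90AB1, whose groups overlapped, held as many. CHORDC1 held 6. The 18 genes with a 2-unit match had a median log2 fold change of -0.088 with 3 called by limma. At an unadjusted limma p under 0.05, 6 of them were lower and 0 higher. The 17 genes without had a median of -0.024 with 0 called, and 2 were lower and 0 higher at that level. Over all genes 0.300% were called lower, and 7.64% were lower and 3.05% higher at that level. The members were chosen with this comparison known, so nothing is read from the split. These matches are letters in a window of 300 bases and are not binding sites, and matches outside the window were not searched for. The 3-unit matches of HSPD1, which lies head to head with HSPE1, fell outside the HSPE1 window, so HSPE1 counts among the genes without.

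**Figure D4:**
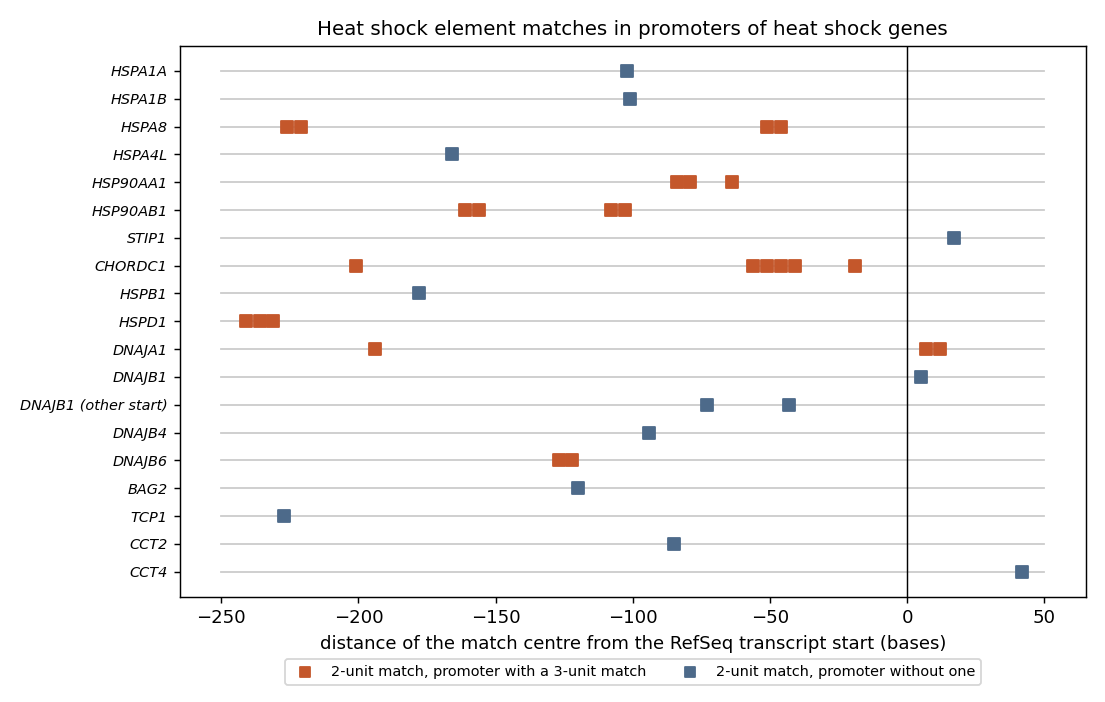
Centres of 2-unit heat shock element matches in the promoters of 18 members, by distance in bases from the RefSeq transcript start (0), red where the promoter also holds a 3-unit match and blue where it does not. HSPA1A and HSPA1B hold 1 match each at almost the same place. HSPA8, HSP90AA1, HSP90AB1, CHORDC1, HSPD1, DNAJA1, DNAJB1 and DNAJB6 hold more than 1 in a promoter, and the other members shown hold 1.

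Sites for the microRNA seed were counted in a single 3′ UTR per gene, the longest among its protein-coding GENCODE 29 transcripts. The letters CAACATT, which pair with bases 2 to 8 of miR-409-3p, were present in 6 of 41 members (14.6%) and in 1574 of 11858 tested genes with a searched UTR (13.3%). HSPA1A, HSPA1B, HSPA8, DNAJB1 and CHORDC1 had no CAACATT in the UTRs searched. The 6 were HSPH1, BAG2, BAG1, HSPA4L, HSPA13 and CCT4, with a median log2 fold change of -0.08 against -0.038 for the other members. Over all genes the medians were -0.017 with and -0.019 without a site. The shorter AACATT, which leaves out the letter opposite base 8, occurred 2 times each in HSPA8 and CHORDC1. It occurred 0 times in HSPA1A, HSPA1B and DNAJB1, and its share over all genes was not counted. Whether the AACATT of HSPA8 and CHORDC1 is followed by an A opposite base 1 was not searched. The CAACATT sites of HSPH1 and of BAG2, the members with such a site whose groups did not overlap, are shown with the seed match in capitals. In BAG2 the match runs on to an A opposite base 1.
HSPH1: tgtcagctattCAACATTtccctactttat
BAG2: tttgattttctCAACATTAggaggatgagg

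Other chaperone genes, from lists made alongside the members, are given for comparison. Of 132 genes named, 129 were matched and 113 tested, and 0 were called by limma. At an unadjusted limma p under 0.05, 9 were lower and 1 higher, where 7.64% of all genes were lower and 3.05% higher. The median log2 fold change of the 113 was -0.01. The 13 tested genes listed here as stress genes under HSF1, outside the group, had a median of -0.049 with 3 lower and 0 higher at that level. These lists were chosen with earlier results known, so nothing is read from the counts, and control by HSF1 was not tested. DEDD2, the lowest of the 13, differed by -0.24 (SE 0.08, limma adjusted p = 0.303). FKBP5, the highest and also in the list of other cytosolic cochaperones, differed by 0.12 (SE 0.06). HSPA6, a strictly stress-inducible HSP70, was near 0 in every library, between 0.0521 and 0.343 TPM, and was not tested.

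Among the other lists, CDC37L1, an HSP90 cochaperone related to CDC37, had the lowest fold change: its means were 11.4 ± 0.633 and 8.53 ± 1.35 TPM (SD, n = 3), a log2 difference of -0.39 (SE 0.11, limma adjusted p = 0.21). GRPEL2, an exchange factor of the mitochondrial HSP70, had the highest: it read 33.4, 37.2 and 37.3 TPM in control and 40.7, 45.9 and 45.6 TPM in mimic libraries (a log2 difference of 0.29, SE 0.07, limma adjusted p = 0.154). Both had no overlap between the groups, and neither passed. Among genes reaching 5 TPM, the remaining extremes were HSPA2 (-0.21) and HSPA12B (0.15) among other heat shock genes, DNAJC16 (-0.25) and HSCB (0.07) among other J-domain genes, and TBCC (-0.13) and PDCL (0.11) among prefoldin and tubulin chaperones, all as log2 fold changes.

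The chaperones of the endoplasmic reticulum had a median log2 fold change of 0.022 over 16 genes, from -0.22 for DNAJB9 to 0.10 for PDIA3. The mitochondrial list, with DNAJA3 (-0.14) as its lowest gene, had a median of -0.024 over 14 genes. HSPA5, the HSP70 of the endoplasmic reticulum, was close to HSPA8 in TPM in control cells: the ratio of HSPA8 to HSPA5 was 0.961, 0.961 and 0.965 in control and 0.742, 0.697 and 0.762 in mimic libraries. HSPA5 itself averaged 1523 ± 55.2 and 1531 ± 72.8 TPM (SD, n = 3), and HSPA9, the HSP70 of mitochondria, 173 ± 6.8 and 169 ± 7.7 TPM, both with overlap. The difference between HSPA8 and these relatives was not tested.

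**Figure D5:**
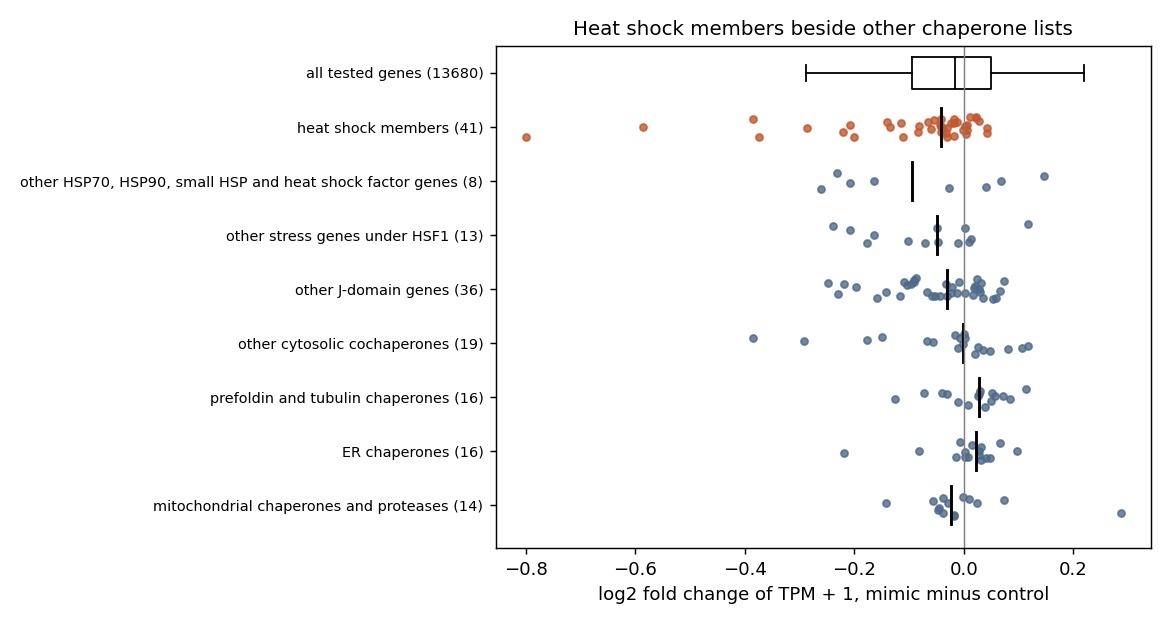
Log2 fold change of TPM + 1, mimic minus control, of the members (red points), of the genes in 7 other chaperone lists (blue points) and of all tested genes (box with 5th to 95th percentile whiskers), with black lines at each median. The 3 called members lie at -0.39, -0.58 and -0.80, and no gene of the other lists was called.

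Some members share reads or positions with other genes, which limits their values. Windows of 75 bases that also occur in another gene made up 22.9% of ST13, 21.1% of HSPA14, 15.1% of DNAJB6 and 10.1% of HSPD1, most often in ST13P6, a second gene model named HSPA14, AP001000.1 and HSPD1P1 in that order. Whether counting used strand is not given in the sources used here, so reads of DNAJB1 and TECR, and of CHORDC1 and AP002364.1, which overlap on opposite strands, cannot be told apart if it did not.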

How the data were processed

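RNA of 3 control and 3 mimic HUVEC samples was sequenced in 75 cycles from one end (labels' protocols). The authors deposited 1 table of TPM values per library, per the file headers. Per the submitters' processing notes, the builds were hg38 and GRCh38.p13. Aligner, counter, annotation, strand setting and treatment of multiply matching reads: not given in the sources used here. Symbols matched 45102 of 45372 IDs, and GENCODE 29 gave positions, lengths and UTRs. Promoters and the microRNA came from RefSeq (GRCh38.p14).

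Groups came from the sample titles. Values of log2(TPM + 1) went into limma 3.58.1 (R 4.3.3) with a trended prior variance and the group as term, for genes reaching 1 TPM in 3 or more libraries. Benjamini-Hochberg adjustment ran over all of them, with a threshold of 0.05. Fold changes understate low genes. The script was tested on simulated data. Depth was estimated from TPM steps: 77.4% to 78.1% of genes with at most 10 estimated reads were whole within 0.03 reads. Reads carried no molecular identifiers.

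The members, lists and tests were chosen with earlier results of these data known. Values per library are given for 13 set members, for members past the threshold, for those without overlap between groups and at least 5 TPM, and for the extremes of each role group. Other lists give their extremes and any called gene. Further genes were named after their values were seen. Alternatives were other pseudocounts, filters, scalings and prior variance, a replicate block, a sum of HSPA1A and HSPA1B, and leaving out each library.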

Additional observations from a re-analysis of the deposited data

How the results depend on the processing

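The number of members called lower was 3 and changed to 0 with no filter on low values (23872 genes tested), to 1 with an untrended prior variance and to 0 with the replicate block. It was 2 with HSPA1A and HSPA1B summed, where the pair counts as 1 gene. It was 4 with a filter of 5 TPM, either scaling, or protein-coding genes only, an alternative chosen after seeing the data. No alternative called a member higher. Leaving out 1 library gave 0 to 3 lower calls, 9 to 16 members without overlap on the low side and 0 to 2 on the high side. The share of all genes was then 12.7% to 22.1% on the low side and 7.1% to 11.6% on the high side. Median-of-ratios scaling gave 3 on the high side, where the share of all genes was 8.5%, against 5.2% as reported. With the replicate block the limma adjusted p was 0.0543 for HSPA1A, 0.0679 for HSPA1B and 0.12 for HSPA8. Libraries with the same number did not deviate together (correlations of 0.03, -0.09 and -0.11, against -0.03 to 0.11 between different numbers). No label says that a number marks a shared source, and correlations among so few libraries cannot settle it. Over all genes, the calls were 41 lower and 18 higher, 5 and 6 with no filter, 10 and 10 with an untrended prior variance, 5 and 9 with the block, 79 and 36 with the filter of 5 TPM, and 122 and 54 for protein-coding genes, with 54 and 33 under median-of-ratios and 42 and 34 under quantile scaling. HSPA1A, HSPA1B, HSPA8 and DNAJB1 kept their direction in all alternatives run. Near 0, the log2 fold change changed sign for HSF2 (0.02 under median-of-ratios, 0.04 under quantile scaling) and HSP90AB1 (-0.07 under quantile scaling). Leaving out 1 library turned it for HSP90AB1 (range -0.02 to 0.04), HSPB1 (-0.05 to 0.14), HSPA14 (-0.03 to 0.03), DNAJB6 (-0.03 to 0.11), HSPE1 (-0.22 to 0.07), BAG3 (-0.09 to 0.01), HSF1 (-0.10 to 0.02) and HSF2 (-0.07 to 0.04). The cause of these changes was not tested. Leaving out a library leaves fewer samples. With no filter, more genes are tested and low genes also enter the fit of the prior variance, and the part of each was not tested. Depth was 29.8 to 35.8 M estimated reads per library, and 3 libraries per group limit the precision.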

Other observations

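A gene ID that GENCODE 29 calls HSPA14 and the symbol table MSANTD7 (ENSG00000284024) was no member by symbol. It lies at chr10:14838160-14847018 on GRCh38 and read 15.4, 17.5 and 17.9 TPM in control and 11.7, 12.7 and 10.7 TPM in mimic libraries. Its groups did not overlap, with a log2 fold change of -0.50 (SE 0.09, limma adjusted p = 0.0566). HSPA14 itself had a log2 fold change of 0.01, and 21.1% of its 75-base windows occur in the other gene model.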
